A study of Mus musculus with 16 samples.

Results

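Genes of the VEGF, angiopoietin and PDGF families, growth factor systems of blood vessels and connective tissue, were examined in bulk RNA-seq of mouse knee joint cells. The genes were taken by symbol from a list of 9, and 8 of them were described across all groups: the VEGF family ligands Vegfc and Pgf, the angiopoietins Angpt1 and Angpt2, the PDGF ligands Pdgfa and Pdgfb, and the PDGF receptors Pdgfra and Pdgfrb. The remaining gene was not analysed here. These were 8 of the 13733 genes listed, and all 8 passed the filter on low values that left 13173 genes for testing.

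The study had 16 mice in 4 groups of 4. WT mice were C57BL/6J by the study's methods, and Trem2-/- mice carried the em2Adiuj knockout allele on C57BL/6J. Trem2, a surface receptor of macrophages and other myeloid cells, is lost in every cell of these mice, and whether the 2 genotypes were littermates is not stated. D7 mice were taken 7 days after anterior cruciate ligament rupture by a single tibial compressive overload at 10 weeks of age, and D0 mice were uninjured. The study's methods give all mice as male and name buprenorphine, an opioid for pain relief, with saline by injection straight after injury. The agent goes with injury, so injury and the agent cannot be told apart in D7 against D0, and no other allele or agent is named for these groups. The sources disagree on the material. The methods describe cells released by enzymes from joints, with immune and other cells kept apart by CD45 in the single-cell experiment, and do not state whether that was done here. The labels name cells from knee joints and, elsewhere, homogenized joints of control and diabetic mice at 16 weeks of age, so the cell mixture behind each value is not settled by the sources.

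VEGF family ligands bind the receptors Flt1, Kdr and Flt4, carried mainly by endothelial cells, with the neuropilins Nrp1 and Nrp2 as co-receptors. Vegfc acts chiefly on lymphatic endothelium through Flt4, and Pgf (placental growth factor) binds Flt1. Angiopoietin 1, made by perivascular and stromal cells, activates the endothelial receptor Tek and stabilizes vessels, whereas angiopoietin 2, released by endothelial cells, can block or activate Tek depending on context. PDGF-B from endothelial cells recruits pericytes that carry Pdgfrb, and Pdgfra marks fibroblasts and mesenchymal progenitors and responds to PDGF-A, PDGF-B and PDGF-C. The joint lining is a vascular tissue, whereas healthy articular cartilage holds no vessels.

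Promoter sequence from RefSeq (GRCm38.p6) was matched for 4 of the 8 genes and for 13 of 14 further genes of the same pathways. Those shown are Pdgfra, the member with the largest change after injury, Vegfc, whose level was not called different in any comparison, and Pdgfc, the pathway gene outside the 8 with the largest change. Each is the 250 bases before the annotated start, 5′ to 3′ on the strand of the gene, and none of the 3 windows overlaps an annotated exon. The letters searched on both strands were ACGTG, the core of the hypoxia response element, GGGCGG, the GC box, TATAAA, the TATA box, and TGANTCA, the AP-1 site. Capitals mark matches.
Pdgfra, chr5:75152001-75152250, plus strand: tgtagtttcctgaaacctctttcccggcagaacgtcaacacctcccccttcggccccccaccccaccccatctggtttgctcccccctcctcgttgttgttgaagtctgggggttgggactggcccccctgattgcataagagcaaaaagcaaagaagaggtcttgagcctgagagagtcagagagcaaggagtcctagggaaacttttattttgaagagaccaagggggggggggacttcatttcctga
Vegfc, chr8:54077282-54077531, plus strand: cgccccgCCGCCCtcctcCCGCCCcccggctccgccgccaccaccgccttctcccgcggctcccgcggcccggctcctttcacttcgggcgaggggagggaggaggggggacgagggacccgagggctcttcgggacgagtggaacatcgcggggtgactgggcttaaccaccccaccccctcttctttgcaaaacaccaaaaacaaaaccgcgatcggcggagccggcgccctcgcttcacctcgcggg
Pdgfc, chr3:81036166-81036415, plus strand: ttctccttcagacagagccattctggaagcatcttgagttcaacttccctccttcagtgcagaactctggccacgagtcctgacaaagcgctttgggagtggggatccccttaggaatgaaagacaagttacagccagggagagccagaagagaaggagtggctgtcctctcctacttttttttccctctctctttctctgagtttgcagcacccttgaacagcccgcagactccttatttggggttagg
The Vegfc window held the GC box 2 times, both on the opposite strand, and none of the other motifs. The Pdgfra and Pdgfc windows held none of the 4. Of 32851 promoter windows of this length, 32.7% held the GC box, 16.6% ACGTG, 12.4% the TATA box and 6.75% the AP-1 letters. GC content was 54.4% in the Pdgfra window, 71.6% in the Vegfc window and 50.8% in the Pdgfc window. No entry was matched for Angpt1, Angpt2, Pdgfb and Pdgfrb.

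Values are CPM, the reads on a gene relative to the TMM-scaled size of its library, and each mouse had between 11567073 and 32867818 reads on the genes listed. The 8 genes were covered by 80 to 8768 reads per mouse, against a floor of 3 reads that corresponds to 0.101 to 0.250 CPM. Trem2 was at 10.7 to 22.5 CPM in WT D7 mice and at 3.42 to 4.84 CPM in Trem2-/- D7 mice, and at 2.51 to 5.61 CPM against 0.948 to 2.68 CPM at D0, so the genotypes were separated at D7 and overlapped at D0. Gene-level values do not show which part of Trem2 the knockout removes. From D0 to D7 the markers of several cell types moved in both genotypes. The median log2 fold change of 8 fibroblast genes was 1.76 in WT and 2.79 in Trem2-/-, with 5 and 7 of them called higher. All 7 chondrocyte genes were called higher in each genotype, and 5 and 6 of 6 leukocyte genes were called lower. Of 6 macrophage genes, 5 were called higher in each genotype and 1 lower in Trem2-/-, with medians of 2.00 in WT and 1.72 in Trem2-/-. All 6 neutrophil genes and all 3 B cell genes were called lower in each genotype. Among 11 endothelial genes the medians were 0.05 and 0.14, and none was called (limma, lowest adjusted p 0.384 and 0.147, lowest unadjusted p 0.260 and 0.0965). Of 9 mural cell genes, 2 were called higher in WT, and 4 higher and 1 lower in Trem2-/-. Among all genes tested, 15.9% were called higher and 12.6% lower in WT, and 26% higher and 27.2% lower in Trem2-/-. In a bulk sample, fewer cells of a type and less RNA per cell cannot be told apart.

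Per kilobase of exon, Pdgfrb had the highest mean over the 16 mice, 36.9 CPM per kb, and Angpt1 the lowest, 1.61 CPM per kb. Pdgfrb was above Pdgfa (19.6 CPM per kb) in 16 of 16 mice, and Pdgfa was above Pdgfb (13.8 CPM per kb) in 15. Pdgfb exceeded Pdgfra (10.4 CPM per kb) in 13 mice. That order rests on dividing by all annotated exons, 4.16 kb for Pdgfb and 10.0 kb for Pdgfra. Which exons these cells use was not examined. Pdgfra was above Angpt2 (8.32 CPM per kb) in 2 of 8 mice at D0 and in 7 of 8 at D7, so their order differed by day. Angpt2 was above Vegfc (7.77 CPM per kb) in 1 of 8 mice at D0 and in all 8 at D7, and Vegfc above Pgf (6.26 CPM per kb) in 7 of 8 at D0 and 3 of 8 at D7. Pgf was above Angpt1 in all 16.

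**Figure D1:**
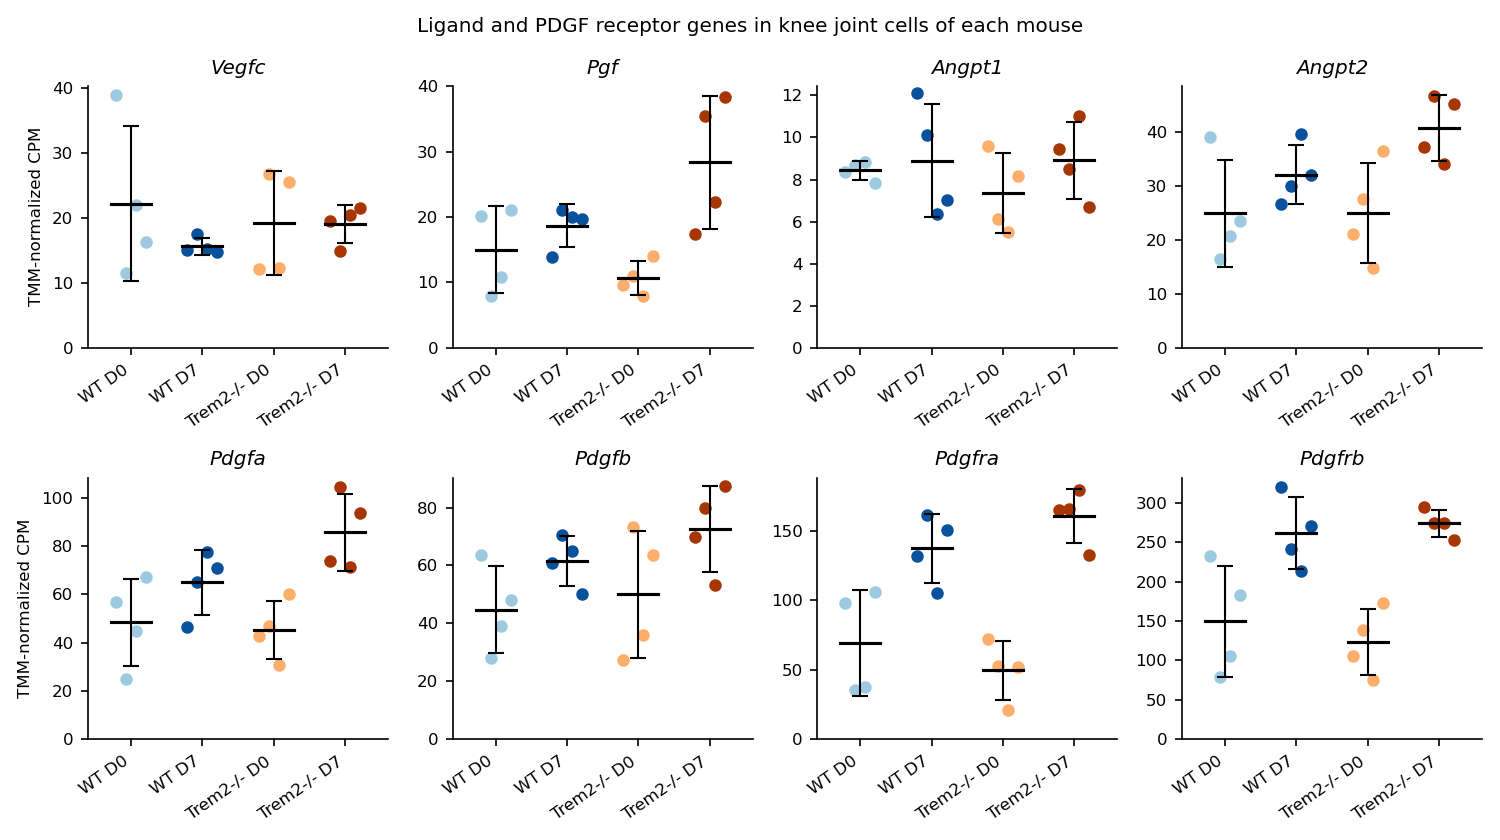
Each panel shows 1 gene in TMM-normalized CPM (linear axis from 0), with 1 point for each mouse, a horizontal bar for the mean of 4 mice and whiskers for 1 SD. Pdgfra and Pdgfrb sit highest at D7 in both genotypes, and Pgf and Pdgfa in Trem2-/- D7 mice lie above all 4 Trem2-/- D0 mice.

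After injury, the PDGF receptor genes were called higher in both genotypes, and Pgf, Pdgfa and Angpt2 were also called higher in Trem2-/- mice. In WT mice 2 of the 8 genes passed (limma on log2(CPM + 1), Benjamini-Hochberg adjusted p under 0.05), against 28.5% of all genes tested, 15.9% higher and 12.6% lower. In Trem2-/- mice 5 of 8 passed, all higher, against 53.2% of all genes tested, 26% higher and 27.2% lower. The median log2 fold change of the 8 genes was 0.44 in WT and 0.84 in Trem2-/-, beside -0.04 over all genes tested in each genotype. Values of the listed genes summed to 826216 to 957113 CPM in D0 libraries and 1042910 to 1169110 CPM in D7 libraries. Relative to a plain share of listed reads, the TMM scaling therefore raised D7 values and lowered D0 values. None of the 8 was called lower. Under the rule the study used, an unadjusted p under 0.05 with a minimum fold change, the counts were 2 in WT and 6 in Trem2-/-, the added gene being Pdgfb, against 37.4% and 54.5% of all genes tested.

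Pdgfra (ENSMUSG00000029231, chr5:75152292-75198215, mm10), the receptor for PDGF-A, showed the largest change of the 8. At D0 its values were 98.2, 35.1, 37.5 and 106 CPM in WT and 72.0, 52.9, 20.8 and 51.9 CPM in Trem2-/- mice. At D7 they were 132, 162, 105 and 151 CPM in WT and 165, 166, 179 and 133 CPM in Trem2-/-. The Trem2-/- groups did not overlap, which was so, in the higher direction, for 26.1% of all genes tested (12.9% in WT), whereas in WT the highest D0 mouse lay just above the lowest D7 mouse. The mean rose from 69.3 ± 38.2 to 137 ± 24.7 CPM in WT (SD, n = 4 each) and from 49.4 ± 21.2 to 161 ± 19.7 CPM in Trem2-/-. On the log2 scale the change was 1.14 (SE 0.37, limma adjusted p = 0.0340) in WT and 1.80 (SE 0.37, limma adjusted p = 0.00100) in Trem2-/-.

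Pdgfrb (ENSMUSG00000024620, chr18:61045150-61085061, mm10), the receptor of pericytes and other mesenchymal cells, had values of 233, 79.0, 106 and 183 CPM in WT D0 mice and 106, 138, 75.7 and 173 CPM in Trem2-/- D0 mice. At D7 its values were 320, 242, 214 and 271 CPM in WT and 295, 275, 274 and 253 CPM in Trem2-/-. The Trem2-/- mice were again separated by day, and 1 WT D0 mouse lay within the D7 range. Pdgfrb changed by 0.91 (SE 0.29, limma adjusted p = 0.0312) in WT and 1.21 (SE 0.29, limma adjusted p = 0.00290) in Trem2-/- on the log2 scale.

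The calls of both receptors in WT rested on single mice and on the test. With edgeR's quasi-likelihood test on recovered reads the adjusted p was 0.0567 for Pdgfra and 0.0524 for Pdgfrb, and with limma on the WT groups alone 0.0666 and 0.0791. For Pdgfra, leaving out WT D0 replicate 2 or 3 gave 0.111 and 0.116, and leaving out WT D7 replicate 1, 2 or 4 gave 0.0667, 0.0811 and 0.0771. For Pdgfrb the same exclusions gave 0.102, 0.0991, 0.0847, 0.0525 and 0.0675. Both receptors kept their direction in each of these. In Trem2-/- mice both were called under every alternative that was run, with log2 fold changes of 1.44 to 2.02 for Pdgfra and 1.00 to 1.39 for Pdgfrb. The fibroblast genes Col1a1, Col1a2, Col3a1, Dcn, Lum, Pdpn, Prg4 and Thy1, a list that holds neither receptor, summed to 8403 to 55785 CPM in D0 mice and 85270 to 152912 CPM in D7 mice, and the 9 mural cell genes, which do not include Pdgfrb, summed to 1002 to 2780 CPM and 1927 to 2643 CPM. The part of these lists in the change of the receptors was not tested.

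Among the ligands, Pdgfa (ENSMUSG00000025856, chr5:138976014-138997370, mm10), which encodes the PDGF-A chain, was called higher in Trem2-/- mice after injury. Its values there were 42.8, 46.7, 30.8 and 60.1 CPM at D0 and 73.7, 104, 71.3 and 93.6 CPM at D7, without overlap. The change was 0.93 on the log2 scale (SE 0.27, limma adjusted p = 0.00851), and the call held in each alternative run. WT mice had 56.8, 25.1, 44.8 and 67.0 CPM at D0 and 46.3, 65.3, 77.5 and 71.0 CPM at D7, with a log2 difference of 0.48 (SE 0.27, limma adjusted p = 0.180) and overlapping groups.

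Pdgfb (ENSMUSG00000000489, chr15:79995874-80014977, mm10), the ligand by which endothelial cells recruit pericytes, was at 63.7, 28.1, 39.1 and 47.9 CPM in WT D0 mice and 60.7, 70.7, 65.0 and 50.1 CPM in WT D7 mice. In Trem2-/- mice it was at 27.4, 73.2, 35.8 and 63.8 CPM at D0 and 69.7, 79.9, 53.4 and 87.4 CPM at D7. The D0 mice of each genotype were spread over a wider range than the D7 mice, and the groups overlapped. The log2 differences were 0.50 (SE 0.29, limma adjusted p = 0.190) in WT and 0.61 (SE 0.29, limma adjusted p = 0.0833) in Trem2-/-. Without Trem2-/- D0 replicate 2 the limma adjusted p was 0.0251, and without Trem2-/- D0 replicate 4 it was 0.0454.

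Pgf (ENSMUSG00000004791, chr12:85166635-85177790, mm10), the ligand of Flt1, was called higher in Trem2-/- mice. Its D0 values of 9.54, 10.99, 7.87 and 14.1 CPM were all below its D7 values of 17.4, 35.4, 22.2 and 38.4 CPM. This was a log2 change of 1.30 (SE 0.30, limma adjusted p = 0.00220), called in each alternative run. WT mice had 20.1, 7.84, 10.8 and 21.1 CPM at D0 and 13.9, 21.1, 20.1 and 19.7 CPM at D7. The WT groups overlapped over most of their range, with a log2 difference of 0.39 (SE 0.30, limma adjusted p = 0.339).

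Vegfc (ENSMUSG00000031520, chr8:54077606-54187096, mm10), the ligand for lymphatic vessels, was not called in either genotype. WT values were 38.9, 11.5, 21.9 and 16.3 CPM at D0 and 15.0, 17.5, 15.3 and 14.7 CPM at D7. The Trem2-/- values were 12.2, 26.8, 12.3 and 25.5 CPM at D0 and 19.6, 14.9, 20.5 and 21.5 CPM at D7. The mean was 22.2 ± 11.9 CPM in WT D0 and 15.6 ± 1.28 CPM in WT D7 mice (SD, n = 4). Its log2 difference was -0.35 (SE 0.31, 95% interval -1.005 to 0.31, limma adjusted p = 0.405) in WT and 0.07 (SE 0.31, 95% interval -0.58 to 0.73, limma adjusted p = 0.856) in Trem2-/-.

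Of the angiopoietins, Angpt2 (ENSMUSG00000031465, chr8:18690263-18741562, mm10) was called higher in Trem2-/- mice and Angpt1 was not called. Angpt2 was at 21.1, 27.5, 14.9 and 36.5 CPM in Trem2-/- D0 mice and 37.2, 46.7, 34.1 and 45.3 CPM in Trem2-/- D7 mice, and 1 D0 mouse lay above the lowest D7 mouse. The log2 change was 0.75 (SE 0.26, limma adjusted p = 0.0241). That call was lost without Trem2-/- D0 replicate 1 (adjusted p = 0.0591) or 3 (0.0884), and without Trem2-/- D7 replicate 2 (0.0643) or 4 (0.0586). In WT mice Angpt2 was at 39.1, 16.4, 20.7 and 23.5 CPM at D0 and 26.7, 30.0, 39.7 and 32.1 CPM at D7. The highest WT D0 mouse, replicate 1, was near the top of the D7 range. The WT log2 difference was 0.41 (SE 0.26, limma adjusted p = 0.237), and without WT D0 replicate 1 it was 0.64 (limma adjusted p = 0.0458).

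Angpt1 (ENSMUSG00000022309, chr15:42424723-42676977, mm10), the activating ligand of Tek, was at 5.49 to 12.1 CPM over all 16 mice, and the 4 groups overlapped. Its log2 difference between days was 0.03 (SE 0.20, 95% interval -0.40 to 0.46) in WT and 0.25 (SE 0.20, 95% interval -0.17 to 0.68) in Trem2-/-. The ratio of Angpt2 to Angpt1 within a mouse, taken as a difference of log2(CPM + 1) values, had a mean higher at D7 by 0.38 in WT and 0.49 in Trem2-/- mice. Neither difference passed the two-sided exact permutation test (exact p = 0.429 and 0.200, adjusted p = 0.610 for both over 8 tests, n = 4 per group, smallest possible exact p 0.0286). For the ratio of Pdgfra to Pdgfrb the log2 differences were 0.23 (exact p = 0.314) and 0.59 (exact p = 0.143), with the same adjusted p. A shift between the receptors was thus neither detected nor excluded.

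**Figure D2:**
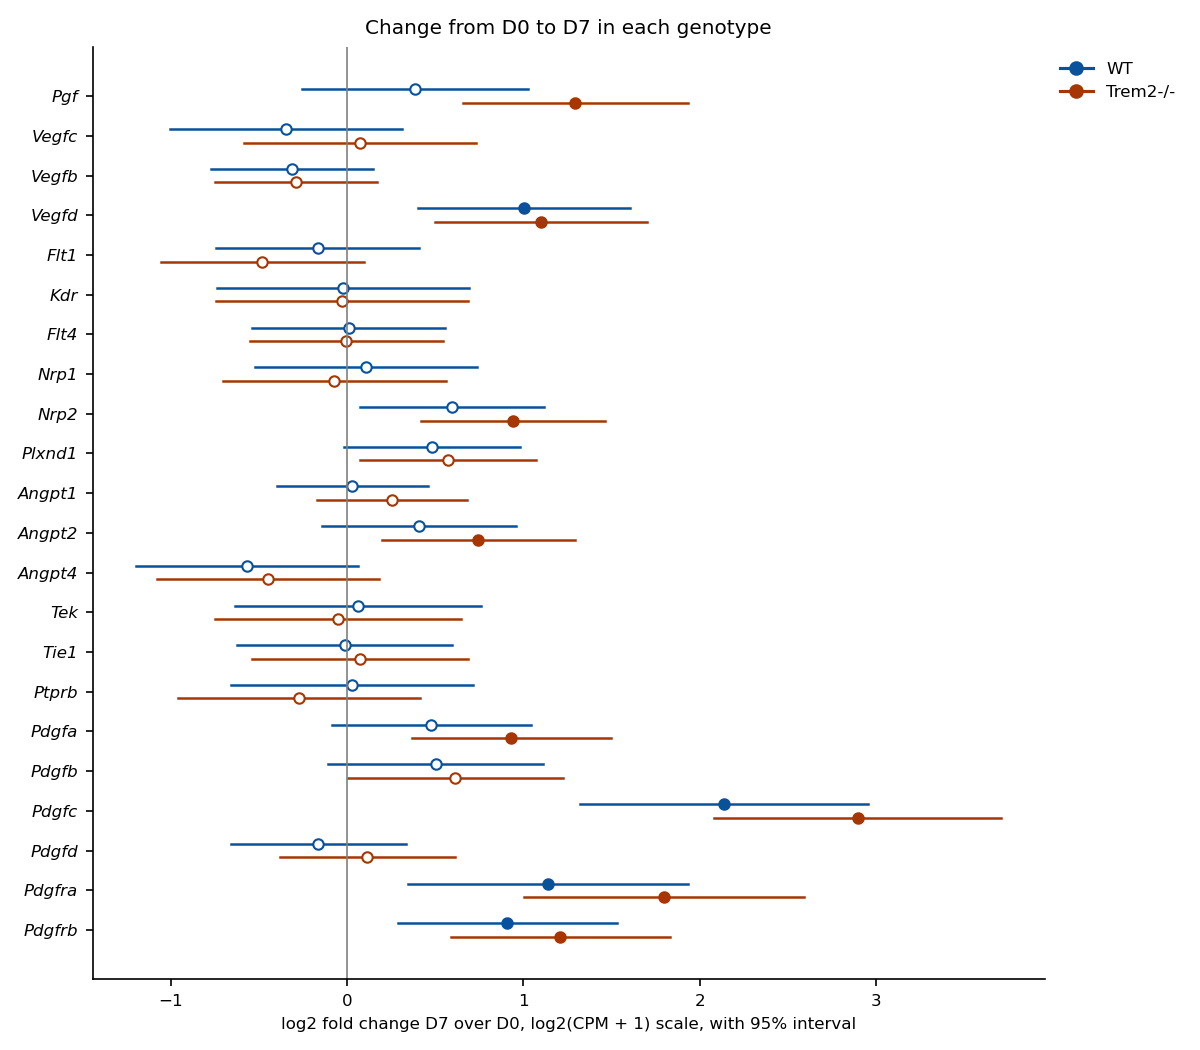
Log2 fold change from D0 to D7 on the log2(CPM + 1) scale, with 95% intervals, for the 8 genes and 14 further ligands and receptors of the same pathways. Blue is WT and brown is Trem2-/-, and filled points mark genes with a limma adjusted p under 0.05. Pdgfc, Vegfd, Pdgfra and Pdgfrb are filled in both genotypes, and most endothelial receptors sit near 0.

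Of 14 further ligands and receptors of these pathways, 2 were called higher in WT after injury and 3 in Trem2-/- mice, and none lower, beside 15.9% and 26% of all genes tested called higher. Pdgfc, which encodes another ligand of Pdgfra, was at 12.8, 4.30, 5.48 and 28.5 CPM in WT D0 mice and at 38.8, 70.1, 39.3 and 45.1 CPM in WT D7 mice. In Trem2-/- mice it was at 6.26 to 8.33 CPM at D0 and at 57.0 to 64.0 CPM at D7. The days did not overlap in either genotype, and the log2 changes were 2.14 (SE 0.38, limma adjusted p = 0.00180) in WT and 2.90 (SE 0.38, limma adjusted p = 3.95e-05) in Trem2-/-. Vegfd, a ligand of Flt4 like Vegfc, changed by 1.00 in WT (limma adjusted p = 0.0176) and 1.10 in Trem2-/- (limma adjusted p = 0.00438) from 20 to 40 reads per D0 mouse. Its WT call was lost without WT D0 replicate 2 (adjusted p = 0.0518) or 3 (0.0616).

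The receptors of endothelial cells showed smaller differences. Flt1, Kdr, Flt4, Nrp1, Tek, Tie1 and Ptprb had log2 differences between -0.48 and 0.11 in both genotypes, and none was called. Nrp2, a co-receptor for Vegfc, was called in Trem2-/- mice (0.94, limma adjusted p = 0.00481). In WT its log2 difference was 0.59 (limma adjusted p = 0.0782), and the adjusted p was 0.0207 without WT D0 replicate 1 and 0.0471 without WT D0 replicate 4. Plxnd1, a semaphorin receptor of vessels that pairs with neuropilins, had 0.48 and 0.57 (limma adjusted p = 0.130 and 0.0504). It passed without WT D0 replicate 1 (0.0190), and in Trem2-/- without D0 replicate 2 (0.0372) or 4 (0.0171). Vegfb, Pdgfd and Angpt4 were not called.

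Between genotypes no member was called on either day. At D7 all 8 genes had a higher mean log2 level in Trem2-/- than in WT mice, by 0.02 for Angpt1 to 0.53 for Pgf, with a median of 0.25 beside 0.01 over all genes tested. None had an unadjusted p under 0.05 by limma, beside 7.27% of all genes tested, and the lowest adjusted p was 0.755, for Pgf, whose 95% interval ran from -0.11 to 1.16. These signs held under quantile and median-of-ratios scaling, whereas leaving out single D7 mice turned that of Angpt1 (without WT D7 replicates 3 or 4 or Trem2-/- D7 replicates 1 or 3, lowest -0.11 without WT D7 replicate 3) and Pdgfrb (-0.01, without the same mouse), and the covariate for endothelial genes described below turned that of Pdgfrb (-0.06) and brought Pdgfb to -0.0002. Other cell markers also differed in direction between the genotypes at D7. All 11 endothelial genes (median 0.23, summed levels of 2608 to 3660 CPM against 2096 to 3260 CPM in WT) and all 8 fibroblast genes (median 0.31) were higher in Trem2-/- mice. All 6 leukocyte genes were lower (median -0.64), with summed leukocyte levels of 1197 to 1501 CPM against 1514 to 3335 CPM in WT. All 6 macrophage genes (median -0.39), all 3 B cell genes (median -1.09) and all 7 chondrocyte genes (median -0.48) were lower as well. None of these marker genes had an adjusted p under 0.05, 5 leukocyte, 2 macrophage and 3 B cell genes passed the rule of the study, and the part of these lists in the members' values was not tested. The adjusted rule called 0% of all genes tested at D7 and the study's rule 5.72%, while edgeR called 0 genes, DESeq2 39 and voom with limma 1. Trem2 itself was not called at D7 (log2 difference -1.72, limma adjusted p = 0.0503). At D0 Trem2 was not called either (-0.98, limma adjusted p = 0.9996). A lack of calls under this rule therefore does not show that the genotypes are alike. The intervals of the other members at D7 reached up to 1.03, so differences up to that size were not excluded with 4 mice a group.

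At D0, 6 of 8 members had a lower mean in Trem2-/- mice, from -0.43 for Pdgfra (95% interval -1.22 to 0.37) to 0.11 for Pdgfb. Over 21 alternatives the sign changed in 6 for Angpt2, in 3 each for Vegfc, Pdgfa and Pdgfb, and in 1 for Pdgfrb. No member had an unadjusted p under 0.05, beside 2.92% of all genes tested, and every adjusted p by limma was 0.9996. Over all genes the adjusted rule called 0% and the study's rule 2.15% at D0, with 0 genes by edgeR, 1 by DESeq2 and 0 by voom with limma. The fibroblast list had a median log2 difference between genotypes of -0.71 at D0 and 0.31 at D7, in the same direction as Pdgfra on each day, with 0 of 8 genes called, and its part in those values was not tested.

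**Figure D3:**
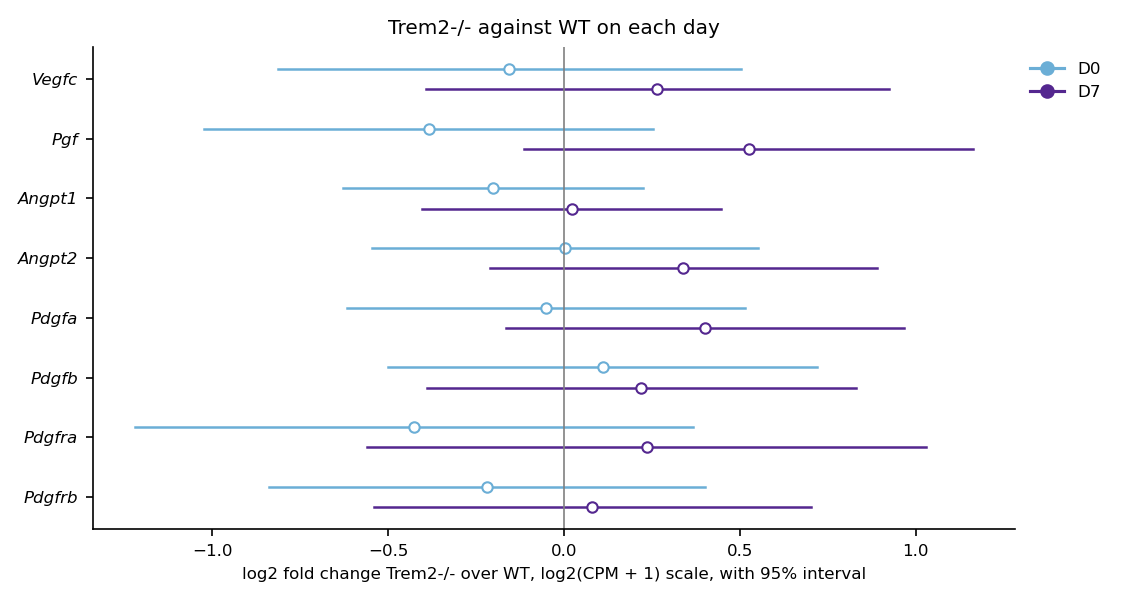
Log2 fold change of Trem2-/- over WT mice on the log2(CPM + 1) scale, with 95% intervals, at D0 (light blue) and D7 (purple). All 16 intervals cross 0, and the D7 points all lie to the right of it.

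The difference between genotypes in the change after injury was estimated above 0 for all 8 genes, from 0.11 for Pdgfb to 0.91 for Pgf on the log2 scale, and none passed the adjusted test. The Pdgfb estimate was below 0 without WT D0 replicate 1 (-0.08) and without Trem2-/- D0 replicates 1 (-0.14) or 3 (-0.01), and with a covariate for endothelial genes (-0.03). The median was 0.38 beside 0.01 over all genes tested. Marker lists moved in the same comparison, with 8 of 8 fibroblast genes (median 0.99) and 7 of 7 chondrocyte genes (median 1.19) above 0 and 6 of 6 leukocyte genes below 0 (median -0.95). By the rule of the study 1 fibroblast and 5 leukocyte genes passed, none had an adjusted p under 0.05, and the part of these lists was not tested. The 4 comparisons share groups, so these estimates are not independent of those above. Pgf (SE 0.42, unadjusted p = 0.0485, limma adjusted p = 0.610) was the only member with an unadjusted p under 0.05, which 8.16% of all genes tested had, 7.79% with the fold change the study asked for. Over all genes, 0% passed the adjusted interaction test, with 0 genes by edgeR, 1 by DESeq2 and 0 by voom with limma.

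Mice of a group varied more at D0 than at D7 for most members, as a description without a test. In WT, 7 of 8 members had a larger SD on the log2 scale at D0, with medians of 0.63 at D0 and 0.25 at D7, beside 66.3% of all genes tested. In Trem2-/- mice it was also 7 of 8, with medians of 0.52 and 0.24, beside 79.0% of all genes. Angpt1 was the exception in WT (SD 0.07 at D0 and 0.39 at D7) and Pgf in Trem2-/- (0.32 and 0.53). Within D0, WT replicate 1 and Trem2-/- replicates 2 and 4 had the highest Vegfc, Angpt2 and Pdgfb values of the 8 uninjured mice. The same mice had the highest summed level of 11 endothelial genes, 4245, 3145 and 3807 CPM, against 1592 to 2523 CPM in the other 5.

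**Figure D4:**
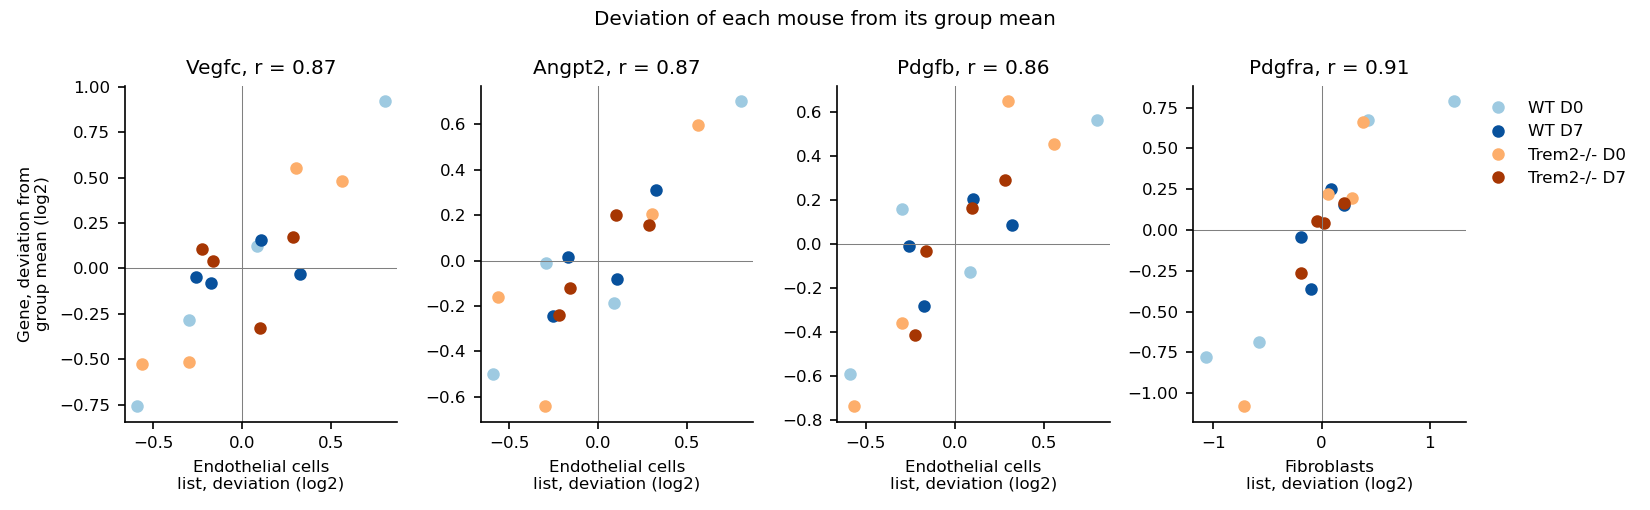
Deviation of each mouse from its group mean in log2(CPM + 1), for a marker list (horizontal axis) and 1 gene (vertical axis), with points coloured by group. Over all 16 mice, Vegfc, Angpt2 and Pdgfb rise with the endothelial list (r = 0.87, 0.87 and 0.86) and Pdgfra with the fibroblast list (r = 0.91). The D0 mice lie farthest from 0.

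Taking each mouse as its deviation from its group mean, 8 genes were set against the mean log2 levels of the endothelial, fibroblast and leukocyte lists, 24 relations in all over 16 mice. Vegfc, Angpt2 and Pdgfb were related to the endothelial list, with Pearson's r = 0.87, 0.87 and 0.86 (adjusted permutation p = 0.0295, 0.0169 and 0.0169) and Spearman's rho = 0.84, 0.86 and 0.84 (adjusted permutation p = 0.0232, 0.0106 and 0.0190). Without the 2 mice farthest from the median, WT D0 replicate 1 and Trem2-/- D0 replicate 4, r was 0.77, 0.75 and 0.82. At D7 Vegfc and the list deviated in opposite directions in WT replicate 3 and Trem2-/- replicates 1, 2 and 3. In the other D7 mice they deviated in the same direction. The D7 mice were not tested alone, so these coefficients do not show that Vegfc followed the list in injured joints. Pdgfra was related to the fibroblast list (r = 0.91, adjusted permutation p = 0.00456; rho = 0.94, adjusted permutation p = 0.0103; r = 0.95 without WT D0 replicates 2 and 4). Pdgfrb was inversely related to the leukocyte list (r = -0.79, adjusted permutation p = 0.020; rho = -0.88, adjusted permutation p = 0.0103; r = -0.84 without WT D7 replicates 1 and 3). The other 19 relations did not pass, among them Pdgfrb with the fibroblast list (r = 0.77, adjusted permutation p = 0.122) and Pgf with the endothelial list (r = 0.64, adjusted permutation p = 0.0919). The mural cell list was not set against the members, so the relation of Pdgfrb to it was not tested. Genes and lists of a mouse come from the same library and share its scaling.

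With the endothelial list as a covariate, added after the data were seen, Angpt2 and Pdgfb passed the injury comparison in WT (limma adjusted p = 0.0320 and 0.0216) as Pdgfra and Pdgfrb did, and in Trem2-/- mice Pdgfb passed as well (limma adjusted p = 0.0180). The same fit called 36.9% of all genes tested in WT and 56.9% in Trem2-/-, against 28.5% and 53.2% without the covariate. In WT the log2 fold change went from 0.41 to 0.42 for Angpt2 and from 0.50 to 0.52 for Pdgfb. In Trem2-/- it went from 0.75 to 0.63 for Angpt2 and from 0.61 to 0.49 for Pdgfb, and the Vegfc difference from 0.07 to -0.06. Without the covariate, neither was called in WT.

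The genes whose log2 levels over the 16 mice were most like each member were, for Pdgfra, Islr, Sema3c and Adamts2 (r = 0.98 each), and for Pdgfrb, Clock, Rbfox2 and Mid2 (r = 0.98 each). Pdgfa was most like D8Ertd82e, Nrp2 and Slc30a4 (r = 0.95 to 0.96), and Pgf most like Slc30a4, D8Ertd82e and Fyttd1 (0.94 to 0.95), so that both shared 2 of 3 genes. Angpt2 was most like Gnai1, Pcdh1 and Arhgap29 (0.96 each) and Pdgfb most like Tnfaip1, Arhgap29 and Plxnd1 (0.94 to 0.95), with Arhgap29 in common. Vegfc was closest to Hes1, Pea15a and Pdgfd (0.93 to 0.94). Angpt1 had no gene above 0.77, its closest being Acat1, Map2k7 and Rai1. These coefficients include the differences between groups and describe these 16 libraries.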

How the data were processed

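Cells of 16 knee joints, 1 library per mouse, were grouped on the genotype and condition the labels give, and replicates are mice whose numbers carry no stated pairing. The authors used STAR with mm10 for alignment, featureCounts for gene counts and edgeR for the deposited signal values, which are TMM-normalized CPM. Versions, annotation and the strand setting of the counting are not given in the sources used here. The study's methods name a stranded library kit and the labels another kit, so whether reads were separated from antisense genes overlapping Angpt1 (Gm17473), Pdgfa (6330403L08Rik), Pdgfra (Gm42802, Gm42803) and Pdgfc (Gm16000) is not known. The members and gene lists were chosen with earlier results of these data known. From the deposited values, 100% were whole multiples of the value of 1 read (tolerance 0.02), so reads were recovered for count tests. All 24 replicate pairs differed by more than counting noise (chi-square over its degrees of freedom at least 10.7). Floors cover counting error only.

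In R 4.3.3, limma 3.58.1 was fitted to log2(CPM + 1) with the 4 groups as 1 factor and a trended eBayes step. Genes that reached 1 CPM in 3 or fewer libraries were left out, and 13173 were tested. Fold changes on this scale understate those of low genes. Ratios used exact permutations over 70 assignments of 8 mice, and correlations 100000 permutations within groups. The named genes are the members, 14 pathway genes fixed as a list, Trem2, and for each member the 3 genes with the highest Pearson's r. Alternatives were pseudocounts of 0.1 and 5, no filter, a mean of at least 5 CPM, quantile and median-of-ratios scaling, only the groups compared, eBayes without trend, a replicate block, each mouse left out, edgeR 4.0.16, DESeq2 1.42.0 and voom on recovered reads, and the rule of the study. An endothelial covariate was added after the data were seen. The limma, edgeR, voom and DESeq2 tests were checked on simulated counts for the WT injury comparison only. Genotype, interaction, ratio and correlation tests were not checked in this way. Positions are from GENCODE M21 (GRCm38), and exon lengths are the union of its exons.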

Additional observations from a re-analysis of the deposited data

Results flagged for a closer look

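Among 96 groups of 4 mice, 22 pathway genes and 2 ratios in 4 groups each, Kdr, the main VEGF receptor of endothelial cells, had a mouse apart from the others of its group, and chance alone would give about 4.8. WT D7 replicate 3 was at 276 CPM and the other 3 mice at 199 to 204 CPM, a gap of 0.936 of the group's range.

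The change of Pgf from D0 to D7 was larger in Trem2-/- than in WT mice by 0.91 on the log2 scale (limma unadjusted p = 0.0485, adjusted p = 0.610). Pgf was higher at D7 in 4 of 4 Trem2-/- mice than in every Trem2-/- D0 mouse, and in WT the groups overlapped. Such separation in the higher direction was seen for 26.1% of all genes tested in Trem2-/- mice and 12.9% in WT. An unadjusted interaction p under 0.05 by limma was seen for 8.16%, so neither trait is particular to Pgf.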

How the results depend on the processing

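In WT, the count of members called after injury (2) was 0 with limma on the WT groups alone and with edgeR, 4 with the endothelial covariate, and 0 to 3 when single mice were left out. For the 14 further pathway genes in WT (2 called) it was 1 with a mean of at least 5 CPM, which removes Vegfd, 4 with the covariate and 1 to 4 with mice left out, and in Trem2-/- (3 called) it was 6 with the covariate. The 5 members called in Trem2-/- became 4 to 6 with mice left out. Under the rule of the study 1 member, Pgf, passed the interaction. For these shifts the cause was not tested. No called value reversed. Among the summary values, 234 were counted as unchanged, which for counts of called genes includes counts near the main one. Single genes could therefore gain or lose a call within these. For single genes, 838 of 896 values kept both their sign and their side of the threshold. A further 34 values stayed uncalled but changed sign, 18 lost a call and 6 gained one. Replicate numbers did not pair the mice by the rule used (same-number r from -0.51 to 0.41 over the comparisons). In the WT injury comparison it was 0.05 to 0.41, with 3 of 4 mice most like their own number. With a replicate block 3561 genes were called in WT and 6773 in Trem2-/-, against 3752 and 7009, and 2 and 5 members as before. A fit of only the groups compared does not exist for the interaction. With 4 mice a group, differences inside the intervals given were not excluded.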

Other observations

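Of 9 hypoxia response genes tested (Slc2a1, Ldha, Car9 and others), 3 were called higher after injury in WT, and 3 higher and 1 lower in Trem2-/- mice, with median log2 fold changes of 0.19 and 0.08. All 6 neutrophil genes were called lower after injury in each genotype, and of 6 macrophage genes 5 were called higher in WT, and 5 higher and 1 lower in Trem2-/- mice. Beside these counts, 15.9% of all genes tested were called higher and 12.6% lower in WT. In Trem2-/- mice the shares were 26% and 27.2%.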
